A study of Mus musculus with 12 samples.

Results

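The transcriptomes of mouse oligodendrocyte progenitor cells (OPCs) exposed to 2 quaternary ammonium compounds, C12-C14-alkyl(ethylbenzyl)dimethylammonium chloride (AEBDAC) and cetylpyridinium chloride (CPC), were compared directly. Libraries were taken by their treatment label, which gave 3 AEBDAC and 3 CPC libraries, 6 of the 12 in the series. The OPCs were derived from mouse pluripotent stem cells, attached for 1 h in a differentiation-permissive medium, and exposure lasted 4 h. The other 6 libraries were 3 exposed to the vehicle, dimethyl sulfoxide, and 3 exposed to a related compound, methyltrioctylammonium chloride (MTOAC). Each compound was given at its own IC75, a concentration that inhibits by 75%. The concentrations are not given in the labels, so the compounds were matched in time and in inhibition and not in dose. AEBDAC and CPC are the only pair of compounds compared with each other here, and comparisons with vehicle are given beside it. No strain, cell line or age is given, and whether the 3 libraries of a group are separate cultures is not stated. A limma p-value here therefore reflects only how far libraries lie apart within their groups, taken over all groups of the fit.

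Quaternary ammonium compounds are cationic surfactants used as disinfectants, in which a positively charged nitrogen is joined to a fatty chain. In CPC the nitrogen is part of a pyridinium ring that carries a hexadecyl chain, and in AEBDAC it carries methyl groups, an ethylbenzyl ring and an alkyl chain. OPCs are the dividing precursors of oligodendrocytes, which wrap axons in myelin. Cells under several kinds of stress phosphorylate the translation factor eIF2α, which favours translation of the transcription factor ATF4; ATF4 then raises genes for amino acid synthesis, amino acid import and tRNA charging, a program called the integrated stress response. Immediate early genes such as Fos and Nr4a1 are transcribed within minutes of calcium, cAMP or growth factor signals, without new protein synthesis.

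Promoters of 3 genes with which the results below are concerned are shown to place them in these programs. Each is the 250 bases before the RefSeq transcription start (GRCm38.p6), written 5′ to 3′ on the strand of the gene. Nr4a1, at chr15:101266596-101266845 on the plus strand, is shown with the cAMP response element core TGACG in capitals, and the same letters on the other strand read CGTCA. Chac1, at chr2:119350992-119351241 on the plus strand, and Asns, at chr6:7693210-7693459 on the minus strand, are shown with the C/EBP-ATF response element TGATGNAA in capitals (N is any base), which reads TTGCATCA on the other strand of Chac1. The motifs do not overlap where shown, and cores in the Chac1 and Asns windows are left in lower case.
Nr4a1: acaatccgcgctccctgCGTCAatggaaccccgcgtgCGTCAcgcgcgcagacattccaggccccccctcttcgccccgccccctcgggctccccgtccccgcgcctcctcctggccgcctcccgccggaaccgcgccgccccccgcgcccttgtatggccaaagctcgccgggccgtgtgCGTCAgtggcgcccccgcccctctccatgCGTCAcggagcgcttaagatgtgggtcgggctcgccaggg
Chac1: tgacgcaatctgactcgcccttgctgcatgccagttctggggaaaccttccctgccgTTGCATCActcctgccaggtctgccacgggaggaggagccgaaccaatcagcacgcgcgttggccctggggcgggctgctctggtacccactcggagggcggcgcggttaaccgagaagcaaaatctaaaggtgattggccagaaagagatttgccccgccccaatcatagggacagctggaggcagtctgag
Asns: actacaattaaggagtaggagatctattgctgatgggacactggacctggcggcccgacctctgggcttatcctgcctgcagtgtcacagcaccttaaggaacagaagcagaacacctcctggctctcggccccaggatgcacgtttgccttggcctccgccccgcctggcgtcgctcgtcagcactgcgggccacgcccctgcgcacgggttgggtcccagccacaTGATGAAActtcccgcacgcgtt
The Nr4a1 window held 4 cores, all on the other strand, 233, 213, 69 and 40 bases before the start. The Chac1 match lay 193 bases and the Asns match 23 bases before the start. With both strands searched, TGACG was found in 17.8% of all 32851 promoters of this length. Counted by gene, with a match in any of its listed promoters, it was found in 31.5% of the 9062 tested genes with a promoter. By the same count it was found in 10 of 14 immediate early genes and in 9 of 20 integrated stress response genes. TGATGNAA was found in 3.45% of all promoters and, counted by gene, in 2.24% of tested genes with a promoter. It was found in 8 of 20 integrated stress response genes and in 0 of 14 immediate early genes. Shares of promoters and shares of genes are in unlike units. A match describes these letters and does not show a bound site.

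Expression was given as TPM, a share of a library's transcripts after correction for length, and differences are AEBDAC minus CPC on the log2(TPM + 1) scale, which understates the change of low genes. The deposited values of the 12 libraries summed to between 772637 and 797758 TPM. How transcripts were combined into symbols is not given in the sources used here. Actb (cytoplasmic actin) and Eef1a1 (a translation elongation factor) are abundant in most cells but reached no more than 76.2 and 63.2 TPM, so a listed value may not be a gene's whole share. Vehicle library 1 had the lowest mean correlation with the others, 0.917, and its mitochondrially encoded transcripts summed to 86422 TPM, against 177124 and 169115 TPM in vehicle libraries 2 and 3. Its part in the values of single genes against vehicle was not tested. OPC markers were present throughout, with Olig1 at 570 to 855 TPM and Olig2 at 333 to 431 TPM in the 6 libraries, whereas none of 10 microglial and none of 6 endothelial markers reached the level needed for testing. Astrocyte and neuron markers were also present, at levels given below. Because the RNA came from bulk cells, fewer cells of a kind and less RNA per cell cannot be told apart.

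No gene separated AEBDAC from CPC. Of 12009 tested genes 0 (0%) had an adjusted p under 0.05 in limma, with or without the replicate number as a block, and the lowest adjusted p was 1 in both fits. An unadjusted p under 0.05 was reached by 211 genes (1.76%), 120 with AEBDAC higher (0.999%) and 91 with AEBDAC lower (0.758%). Evenly spread p-values would give 600.45. With the block an unadjusted p under 0.05 was reached by 415 genes (3.46%), 238 higher (1.98%) and 177 lower (1.47%). With the block and the 6 libraries alone it was reached by 884 genes. Whether the count lies under or over 600.45 thus depends on the fit. The 3 AEBDAC libraries all lay above or all lay below the 3 CPC libraries in 826 genes (6.88%), of which 483 were higher (4.02%) and 343 lower (2.86%). In an exact permutation of 3 against 3 libraries such separation has a p of 0.1. Libraries without overlap therefore do not by themselves mark a gene as different. The median gene differed by 0.01, and the 1st and 99th percentiles of the differences were -0.94 and 0.86.

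A missing call does not show that the compounds act alike, so the intervals were counted. The 95% interval of the difference stayed within 1 log2 unit, a 2-fold change, for 8840 genes (73.6%) and within 0.5 log2 units for 3090 genes (25.7%). With the block these counts were 9528 and 4275. Among the 6209 genes averaging 10 TPM or more the shares without the block were 90.2% and 45.0%. For most moderately expressed genes a 2-fold difference therefore lay outside the interval, and the median interval reached 0.42 log2 to either side of the difference. Differences past 1 log2 were seen in 181 genes (1.51%). Of these, 97 had a library listed at 0, 71 were unnamed gene models and 37 averaged 10 TPM or more. The highest was the unnamed model Gm28438, listed at 0 in all 3 CPC libraries and at 137, 86.8 and 346 TPM in the AEBDAC libraries. It was also at 0 in vehicle library 3 and at 628 TPM in vehicle library 1, so its level varied as much within the vehicle group.

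**Figure D1:**
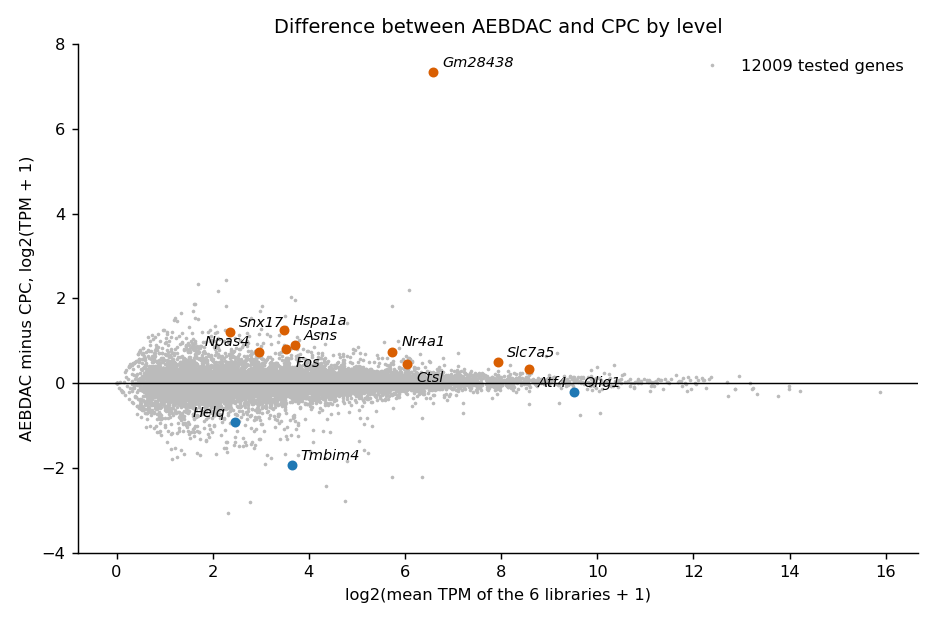
Difference between AEBDAC and CPC (vertical axis, log2(TPM + 1)) against the mean level of the 6 libraries (horizontal axis, log2 scale) for 12009 tested genes (grey), with genes named in the text in orange where AEBDAC was higher and in blue where it was lower. The spread narrows as the level rises, and none of the points passed the test.

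More genes were called by replicate number than between AEBDAC and CPC. In a fit with group and number, 968 of 12009 genes (8.06%) differed between the numbers 1, 2 and 3 at an adjusted p under 0.05 (limma F test over 12 libraries), and 1091 (9.08%) did so without vehicle library 1. These tests use more libraries than the 3 against 3 of the compounds. In the AEBDAC and CPC libraries alone 34 genes (0.283%) differed by number, and the fit with the block called 0 between the compounds. The genes named in this paragraph were chosen after their values were seen. Eif2s3y, a gene of the Y chromosome, was listed at 0 in number 2 of all 4 groups and at 34.5 to 55.8 TPM in the other 8 libraries. Kdm5d, also on the Y chromosome, was at 0.0927 to 0.269 TPM in the 4 libraries numbered 2 and at 10.9 to 16.3 TPM in the others. Both Y-linked transcripts were thus at or near 0 in number 2 under every treatment. Genes that pattern the body axis also followed the number. Hoxa7, a trunk homeobox gene, was at 7.57 to 10.4 TPM in number 1 and under 1 TPM in numbers 2 and 3, and Otx2, a homeobox gene of the forebrain and midbrain, was at 5.18 to 7.83 TPM in number 2 and under 1 TPM elsewhere. The labels do not say what a number marks.

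Several genes of the responses described below also followed the number. Dusp6, a phosphatase that ERK signalling induces and that in turn inactivates ERK, was at 9.55, 56.1 and 70.6 TPM in CPC libraries 1 to 3 and at 18.7, 65.3 and 88.5 TPM in AEBDAC libraries 1 to 3. Number 1 was the lowest of its group for Dusp6 in the vehicle and MTOAC libraries too. Dusp6 differed between the numbers (adjusted p = 0.0012 in the limma F test over 12 libraries), whose means over the 4 groups spanned 2.02. The difference between the compounds was 0.48 ± 0.80 (SE), and the 2 effects were not tested against each other. Egr1, an immediate early transcription factor, was at 2.26, 8.76 and 18.8 TPM with CPC and at 3.21, 12.1 and 21.9 TPM with AEBDAC. Sox10, a transcription factor of the oligodendrocyte lineage, was at 48.6, 12.5 and 42.7 TPM with CPC and at 41.4, 7.48 and 31.4 TPM with AEBDAC, with number 2 lowest under each compound. For these genes the comparison within numbers had the narrower interval, -0.07 to 1.03 for Dusp6, and blocked intervals of Egr1 and Sox10 are given with their groups below. Blocked intervals are for single genes, without adjustment for the number tested. One that leaves out 0 is not a call, and no gene was called between the compounds with the block.

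The smallest unadjusted p among named genes with separated libraries belonged to Nr4a1, a nuclear receptor of the immediate early class. It was at 29.1, 42.5 and 46.5 TPM with CPC and at 64.9, 63.6 and 67.7 TPM with AEBDAC, against 12.3, 17.1 and 15.6 TPM with vehicle. The 3 groups did not overlap. AEBDAC exceeded CPC by 0.75 ± 0.17 (SE, 95% interval 0.37 to 1.12), with an unadjusted limma p of 0.0011 and 0.00062 with the block. Against vehicle, Nr4a1 rose by 1.32 with CPC (adjusted p = 0.0246 in limma) and by 2.06 with AEBDAC (adjusted p = 0.000531 in limma). These 2 comparisons share the vehicle libraries.

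Tmbim4, a Golgi membrane protein that protects against cell death, was the gene with AEBDAC lower and the smallest p. It was at 19.4, 21.1 and 14.4 TPM with CPC and at 4.72, 8.02 and 1.37 TPM with AEBDAC, and at 6.01, 16.5 and 10.9 TPM with vehicle, which overlapped both. The difference was -1.94 ± 0.46 (95% interval -2.95 to -0.93, unadjusted limma p of 0.0014). Tmbim4 (chromosome 10, 120201590 to 120224917, GRCm38) overlaps Irak3 on the other strand, and without strand information the reads of overlapping genes cannot be assigned with certainty.

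Like Nr4a1 and Tmbim4, the genes of this paragraph and the next were picked for small p and separated libraries, which favours large differences. Among those with AEBDAC higher was Snx17, an endosomal sorting protein. It was at 1.68, 2.95 and 1.80 TPM with CPC and at 4.86, 6.96 and 6.65 TPM with AEBDAC, a difference of 1.20 ± 0.35, and overlaps Eif2b4 and Zfp513 on the other strand. Vehicle stood at 13.3, 5.69 and 6.24 TPM, above all 3 CPC libraries and overlapping AEBDAC. Ctsl, the lysosomal protease cathepsin L, was at 49.8, 54.9 and 59.3 TPM with CPC and at 79.3, 66.7 and 78.9 TPM with AEBDAC, a difference of 0.45 ± 0.14. Vehicle, at 67.1, 56.1 and 74.3 TPM, overlapped both. Plekhh3, Zfp113 and Qtrt1, the last a subunit of the enzyme that places queuosine in tRNA, differed by 0.67 ± 0.19, 0.68 ± 0.21 and 0.52 ± 0.16, and Plekhh3 overlaps Cntnap1 on the other strand.

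In the other direction Helq, a DNA helicase of crosslink repair, was at 6.01, 4.84 and 7.92 TPM with CPC and at 3.02, 2.96 and 2.35 TPM with AEBDAC, a difference of -0.92 ± 0.24. With AEBDAC it fell by 1.14 against vehicle (adjusted p = 0.0493 in limma), and stood at -0.22 with CPC. Anapc15, a subunit of the anaphase-promoting complex, was at 58.7, 43.6 and 50.7 TPM with CPC and at 39.0, 37.0 and 39.3 TPM with AEBDAC, a difference of -0.39 ± 0.11, and it overlaps Folr1 and Tomt. Ankrd54, Miip and Actr5, the last a subunit of the INO80 chromatin remodeller, differed by -0.96 ± 0.31, -0.62 ± 0.20 and -0.60 ± 0.20.

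**Figure D2:**
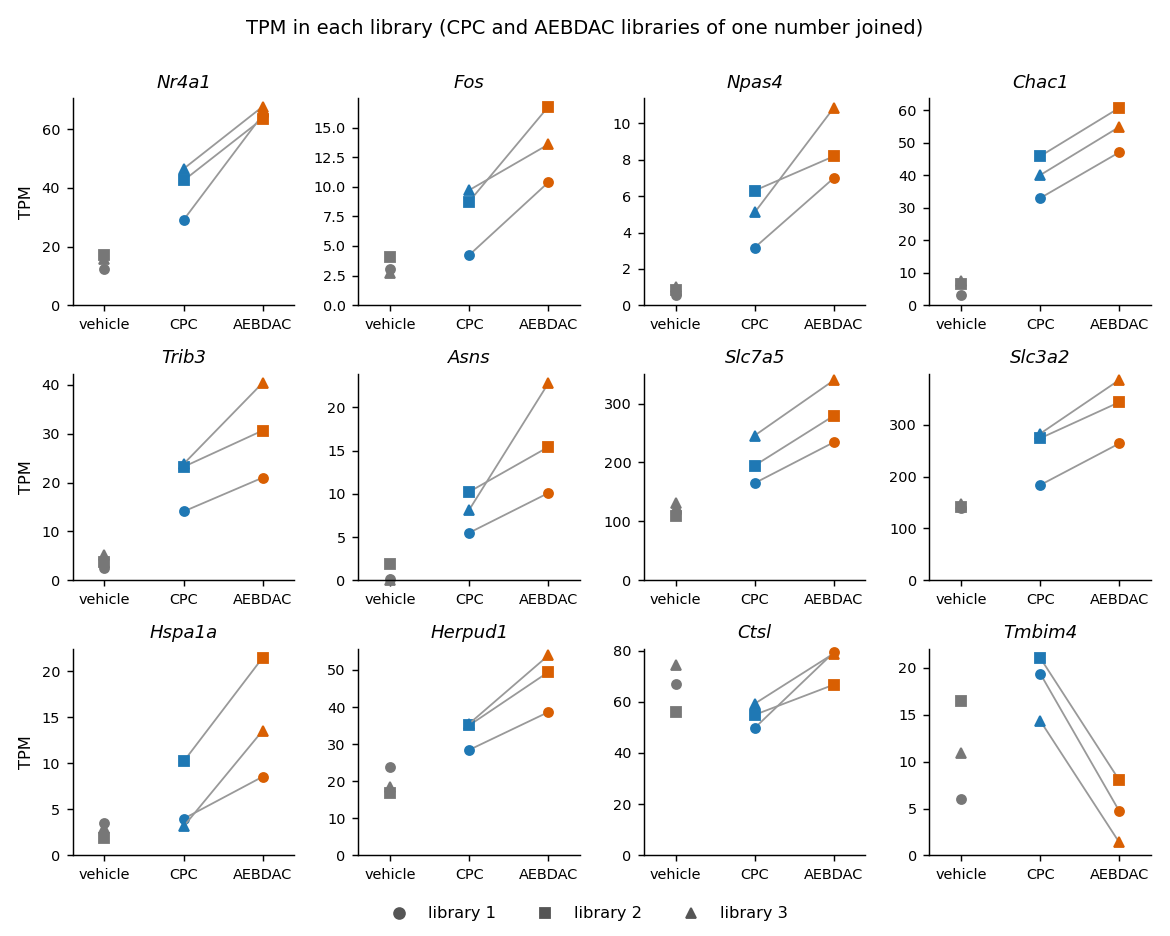
TPM of 12 genes in each vehicle (grey), CPC (blue) and AEBDAC (orange) library, with a marker shape per library number and lines joining the CPC and AEBDAC libraries of the same number. For Nr4a1 the 3 AEBDAC libraries, at 63.6 to 67.7 TPM, lie above the 3 CPC libraries, at 29.1 to 46.5 TPM, and for Tmbim4 they lie below.

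Targets of the integrated stress response were called against vehicle with both compounds, and their levels were mostly higher with AEBDAC than with CPC, although no member passed the test between the compounds. Of 27 listed genes 24 were tested, and 20 of the 24 had a positive difference, against 53.1% of all genes. The median difference was 0.31, against 0.01 for all genes. AEBDAC was higher in all 3 numbered pairs for 17 of the 24, against 17.3% of all genes, and lower in all 3 pairs for 1, against 13.8%. Against vehicle, 2 members rose with CPC, where 4 of all genes did (0.0333%), and 6 rose with AEBDAC, where 47 did (0.391%), with medians of 0.51 and 0.77. The mean of the 24 genes above the vehicle mean was 0.52, 0.80 and 0.68 in CPC libraries 1 to 3 and 0.85, 0.93 and 1.02 in AEBDAC libraries 1 to 3, so that the lowest AEBDAC library stood just above the highest CPC library. Leaving out any 1 library left the list's median between 0.29 and 0.35.

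Chac1, which degrades glutathione and is a late target of ATF4, was at 33.0, 45.9 and 40.0 TPM with CPC and at 47.1, 60.7 and 54.9 TPM with AEBDAC, against 3.05, 6.50 and 7.42 TPM with vehicle. The compounds did not overlap, and they differed by 0.45 ± 0.25 (95% interval -0.11 to 1.0, unadjusted limma p of 0.103). Chac1 rose against vehicle by 2.66 with CPC (adjusted p = 0.0043 in limma) and by 3.11 with AEBDAC (adjusted p = 0.000531). The step from vehicle was thus several times the step between the compounds. Trib3, a pseudokinase that restrains the response, was at 14.1, 23.2 and 23.8 TPM with CPC and at 21.0, 30.6 and 40.4 TPM with AEBDAC, a difference of 0.56 ± 0.28 with an unadjusted limma p of 0.069, or 0.0061 with the block. Asns, asparagine synthetase, was at 5.49, 10.2 and 8.14 TPM with CPC and at 10.1, 15.4 and 22.8 TPM with AEBDAC, where vehicle reached at most 1.88 TPM. The groups overlapped by 1 library, and the difference was 0.90 ± 0.41. Atf4 itself was at 265, 384 and 360 TPM with CPC and at 381, 444 and 445 TPM with AEBDAC, a difference of 0.34 ± 0.20.

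The remaining members spanned -0.42 for Atf5 to 0.53 for Nupr1. Mthfd2, a mitochondrial folate enzyme, differed by 0.40 ± 0.17 and rose against vehicle with CPC (1.17, adjusted p = 0.0331 in limma) and with AEBDAC (1.57, adjusted p = 0.0034). Herpud1, which acts in the degradation of misfolded proteins of the endoplasmic reticulum, was at 28.4, 35.1 and 35.5 TPM with CPC and at 38.6, 49.4 and 53.9 TPM with AEBDAC, without overlap, a difference of 0.50 ± 0.17. Sesn2, a leucine sensor that restrains mTORC1, differed by 0.44 ± 0.22. Ddit3, which encodes the transcription factor CHOP, was at 8.04 to 9.63 TPM with CPC and at 10.5 to 10.9 TPM with AEBDAC, but vehicle ranged from 4.49 to 12.7 TPM and the difference was 0.23 ± 0.31. Ppp1r15a, Atf3 and Ndrg1 were not tested, being below the filter.

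Amino acid carriers followed the same order in single genes. Slc7a5 and Slc3a2 encode the subunits of the LAT1 importer of large neutral amino acids. Slc7a5 was at 165, 195 and 246 TPM with CPC and at 234, 279 and 339 TPM with AEBDAC, and its vehicle libraries lay between 109 and 132 TPM. Within each number AEBDAC was higher, and the difference was 0.50 ± 0.19, with an unadjusted limma p of 0.0213, or 0.00066 with the block. Slc3a2 was at 184, 274 and 283 TPM with CPC and at 264, 343 and 386 TPM with AEBDAC, a difference of 0.43 ± 0.19. Slc1a4, a carrier of alanine, serine and cysteine, differed by 0.37 ± 0.13 without overlap. All 3 rose against vehicle with AEBDAC, by 1.23, 1.19 and 0.73 (adjusted p = 0.019, 0.0225 and 0.032 in limma), while with CPC they stood at 0.74, 0.76 and 0.36 and did not pass. Whether the rise differed between the compounds is the comparison above, which none of them passed.

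Over the list of 12 carriers, 9 had a positive difference, the median was 0.15, and it was 0.43 without AEBDAC library 1. Of 20 aminoacyl-tRNA synthetases, the enzymes that charge tRNAs, 14 were positive with a median of 0.16. Aars and Cars, for alanine and cysteine, differed by 0.22 ± 0.11 and 0.26 ± 0.17, and Aars overlaps Exosc6. Of 17 genes of serine, folate, proline and asparagine synthesis, 11 were positive with a median of 0.09.

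Most immediate early genes showed higher values with AEBDAC, with less even agreement between libraries. Of 26 listed genes 21 were tested, and Fosl1, Egr2, Egr4, Ier3 and Maff were below the filter. 18 of the 21 were positive, against 53.1% of all genes, and the median was 0.30, but it was -0.05 without AEBDAC library 3. The libraries did not overlap, with AEBDAC higher, for 5 of the 21, against 4.02% of all genes. These were Nr4a1, Npas4, Fos, Nr4a3 and Jund. Npas4, a transcription factor induced by calcium, was at 3.17, 6.31 and 5.10 TPM with CPC and at 7.0, 8.2 and 10.9 TPM with AEBDAC, against 0.581 to 1.0 TPM with vehicle. It differed by 0.74 ± 0.26, and against vehicle it rose with AEBDAC (2.41, adjusted p = 0.0036 in limma) and stood at 1.66 with CPC (adjusted p = 0.054). Fos was at 4.23, 8.75 and 9.71 TPM with CPC and at 10.4, 16.8 and 13.6 TPM with AEBDAC, a difference of 0.81 ± 0.30 with an unadjusted limma p of 0.0219, or 0.0033 with the block. Egr1, given above by number, differed by 0.33 ± 0.85, and its blocked interval was -0.20 to 0.87. Of the 21 genes 3 were negative. The lowest, Btg2, went the other way by -0.59, and its levels are given below with the p53 targets.

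ERK feedback genes are induced by growth factor signalling and dampen it. Of 11 tested, 9 were positive with a median of 0.43, but the median was -0.08 without CPC library 1. The list's mean above vehicle was -0.07, 0.88 and 0.92 in CPC libraries 1 to 3 and 0.35, 1.08 and 0.97 in AEBDAC libraries 1 to 3. Library 1 was the lowest with both compounds, as with Dusp6. Spry2, an inhibitor of receptor tyrosine kinase signalling chosen after its values were seen, was at 25.9, 90.1 and 60.9 TPM with CPC and at 44.5, 114 and 82.5 TPM with AEBDAC, a difference of 0.51 ± 0.47 with a blocked interval of 0.07 to 0.95. Etv5, an ETS transcription factor, went the other way, by -0.68 ± 0.49, at levels under 5 TPM.

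Among heat shock genes, only the HSP70 pair stood out in size. Hspa1a was at 3.98, 10.2 and 3.14 TPM with CPC and at 8.55, 21.5 and 13.6 TPM with AEBDAC, a difference of 1.25 ± 0.38 (unadjusted limma p of 0.0068), and it rose against vehicle with AEBDAC by 1.98 (adjusted p = 0.0396 in limma). Hspa1b differed by 0.91 ± 0.35, but the coding sequences of the pair are nearly identical, so their reads may have been shared. CPC library 2 overlapped the AEBDAC range for both. Of 18 heat shock genes 10 were positive, with a median of 0.01. Hmox1, heme oxygenase, an NRF2 target, differed by 0.27 ± 0.18, and rose against vehicle with AEBDAC (0.89, adjusted p = 0.0406 in limma). Of 18 NRF2 targets 14 were positive with a median of 0.07.

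Hspa5, the main chaperone of the endoplasmic reticulum, was at 280, 246 and 289 TPM with CPC and at 265, 241 and 326 TPM with AEBDAC, a difference of 0.02 ± 0.20. Its interval, -0.42 to 0.46, excluded a 2-fold change in either direction, and its sign turned under both other scalings, to -0.01. Of 21 genes for chaperones and degradation of the endoplasmic reticulum, 15 were positive with a median of 0.12, and that median was 0.00 without AEBDAC library 3. Of 23 genes of cholesterol synthesis and uptake, 17 were positive with a median of 0.06. Hmgcs1, an early enzyme of the pathway, differed by -0.01 ± 0.16. Idi1, an isomerase of the same pathway, was at 291, 220 and 238 TPM with CPC and at 181, 191 and 216 TPM with AEBDAC, without overlap, a difference of -0.34 ± 0.25. Medians of the other metabolic lists were 0.00 for 13 genes of fatty acid synthesis, 0.13 for 7 LXR targets, 0.09 for 25 lysosome and autophagy genes, 0.05 for 30 nuclear genes of oxidative phosphorylation and 0.04 for 18 genes of glycolysis and hypoxia.

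No lineage gene passed the test between the compounds, and more OPC markers were lower than higher with AEBDAC. Of 20 OPC markers 7 were positive and 13 negative, with a median of -0.05. AEBDAC was lower in all 3 numbered pairs for 5 of the 20, against 13.8% of all genes. It was higher in all 3 pairs for 1, against 17.3%. Olig1, a transcription factor of the lineage, was at 786, 704 and 855 TPM with CPC and at 819, 570 and 656 TPM with AEBDAC, a difference of -0.21 ± 0.16 with overlap, and with AEBDAC it fell by 0.82 against vehicle (adjusted p = 0.0404 in limma). Olig2 differed by 0.07 ± 0.18 and Pdgfra, the receptor for the main OPC mitogen, by 0.11 ± 0.28. Gpr17, a receptor of OPCs that are about to differentiate, was at 40.7, 22.0 and 36.2 TPM with CPC and at 33.1, 13.6 and 23.7 TPM with AEBDAC. AEBDAC was lower in each numbered pair for Gpr17 although the groups overlapped, and the difference of -0.51 ± 0.30 had a blocked interval of -0.87 to -0.15. It overlaps Lims2 on the other strand. Sox10 differed by -0.44, with a blocked interval of -0.88 to -0.00. Of 9 tested myelin and differentiation genes the median was 0.02, and Cnp, an early myelin enzyme that overlaps Dnajc7 on the other strand, differed by 0.04 ± 0.13.

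Markers of other cell types were also counted. Astrocyte markers, 9 tested, had a median of 0.01, and neuron markers, 11 tested, a median of 0.02. The astrocyte list summed to 309 to 346 TPM with CPC and 326 to 368 TPM with AEBDAC. The neuron list summed to 527 to 830 TPM with CPC and 525 to 778 TPM with AEBDAC, so the cultures were not free of such transcripts. Of 11 mesenchymal markers 4 were tested, with a median of 0.20 that ranged from -0.082 to 0.44 without any 1 library, and the list's summed level was 60.7 to 119 TPM with CPC and 69.2 to 146 TPM with AEBDAC. Of 10 pluripotency markers 2 were tested, and the list summed to 6.49 to 11.5 TPM with CPC and 6.58 to 10.9 TPM with AEBDAC.

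Of 15 Notch pathway genes 6 were positive and 9 negative, with a median of -0.14 that reached 0.06 without AEBDAC library 2 or without CPC library 3. Dll1, a Notch ligand, fell by 0.83 against vehicle with CPC (adjusted p = 0.0331 in limma), fell by 0.98 with AEBDAC (adjusted p = 0.0055 in limma), and differed between them by -0.14 ± 0.12. Notch1, a receptor, was at 72.7, 55.6 and 63.6 TPM with CPC and at 51.9, 54.2 and 44.7 TPM with AEBDAC, without overlap, a difference of -0.34 ± 0.18. Hes5, a target of the pathway, differed by -0.47 ± 0.36. ID proteins and BMP feedback genes, 11 tested, had a median of 0.09, and Smad7, an inhibitor of the pathway, differed by 0.28 ± 0.25.

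Genes of mitosis were slightly lower with AEBDAC. Of 24 genes of G2 and mitosis 21 had a negative difference, against 46.8% of all genes. In all 3 numbered pairs 12 were lower, against 13.8% of all genes. The median was -0.13 and lay between -0.18 and -0.10 without any 1 library. None was past an unadjusted p of 0.05 in the fit without the block. The list's mean relative to vehicle was -0.29, -0.54 and -0.51 in CPC libraries 1 to 3 and -0.50, -0.72 and -0.59 in AEBDAC libraries 1 to 3, so the groups overlapped. Kif20a, a kinesin of cytokinesis that overlaps Cdc23 on the other strand, differed by -0.27 ± 0.19 with a blocked interval of -0.53 to -0.02, and Bub1b, a spindle checkpoint kinase, by -0.24 ± 0.17 with a blocked interval of -0.47 to -0.02. Aurka, a mitotic kinase, fell by 0.84 against vehicle with AEBDAC (adjusted p = 0.032 in limma), and differed from CPC by -0.16 ± 0.15. Mki67, a marker of cycling cells, differed by -0.11 ± 0.15.

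Replication genes did not share that order. Of 23 genes of DNA replication and S phase 16 were positive, with a median of 0.06. Cdt1, a replication licensing factor, was at 15.9, 16.2 and 16.2 TPM with CPC and at 18.0, 20.2 and 20.2 TPM with AEBDAC, without overlap, a difference of 0.26 ± 0.15. Cdk2 differed by 0.24 ± 0.15 and Ccne1, its cyclin partner, by -0.23 ± 0.21, and Cdk2 overlaps Pmel on the other strand. The 18 p53 targets and G1 brakes had a median of -0.02. Among them Btg2, an antiproliferative target of p53 and an early response gene, was at 94.7, 43.0 and 51.8 TPM with CPC and at 68.3, 27.7 and 32.0 TPM with AEBDAC. Btg2 was lower with AEBDAC in every numbered pair, with a difference of -0.59 ± 0.38 and a blocked interval of -0.97 to -0.20. The 17 apoptosis genes had a median of -0.00.

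Among splicing factors, Sfpq fell with both compounds and differed little between them. Sfpq, a paraspeckle protein, was at 119, 129 and 128 TPM with CPC and at 132, 134 and 122 TPM with AEBDAC, against 209 to 248 TPM with vehicle. It fell by 0.86 against vehicle with CPC (adjusted p = 0.0115 in limma) and fell by 0.81 with AEBDAC (adjusted p = 0.0055 in limma). The compounds differed by 0.05 ± 0.10, with an interval of -0.16 to 0.26. Hnrnpd, an RNA-binding protein, was at 111, 149 and 132 TPM with CPC and at 162, 159 and 174 TPM with AEBDAC, without overlap, a difference of 0.34 ± 0.13. Srsf5, a splicing factor, differed by 0.31 ± 0.14. Rbm12, which overlaps Cpne1 on the same strand, differed by -0.46 ± 0.31. Of 26 genes of this list 17 were positive, with a median of 0.02.

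Of 16 inflammatory genes 7 were tested, 5 were positive and the median was 0.36. It was 0.02 with every listed gene above 0 included. Relb, an NF-κB subunit, was at 4.47, 2.55 and 5.11 TPM with CPC and at 5.23, 6.81 and 6.17 TPM with AEBDAC, a difference of 0.52 ± 0.24. Ccl2, a chemokine, was at 0.729 to 3.36 TPM with CPC and at 1.43 to 5.06 TPM with AEBDAC, a difference of 0.72 ± 0.48. Both were low genes. Histone genes, 9 tested, and cytosolic ribosomal proteins, 32 tested, had medians of 0.00 and 0.05.

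**Figure D3:**
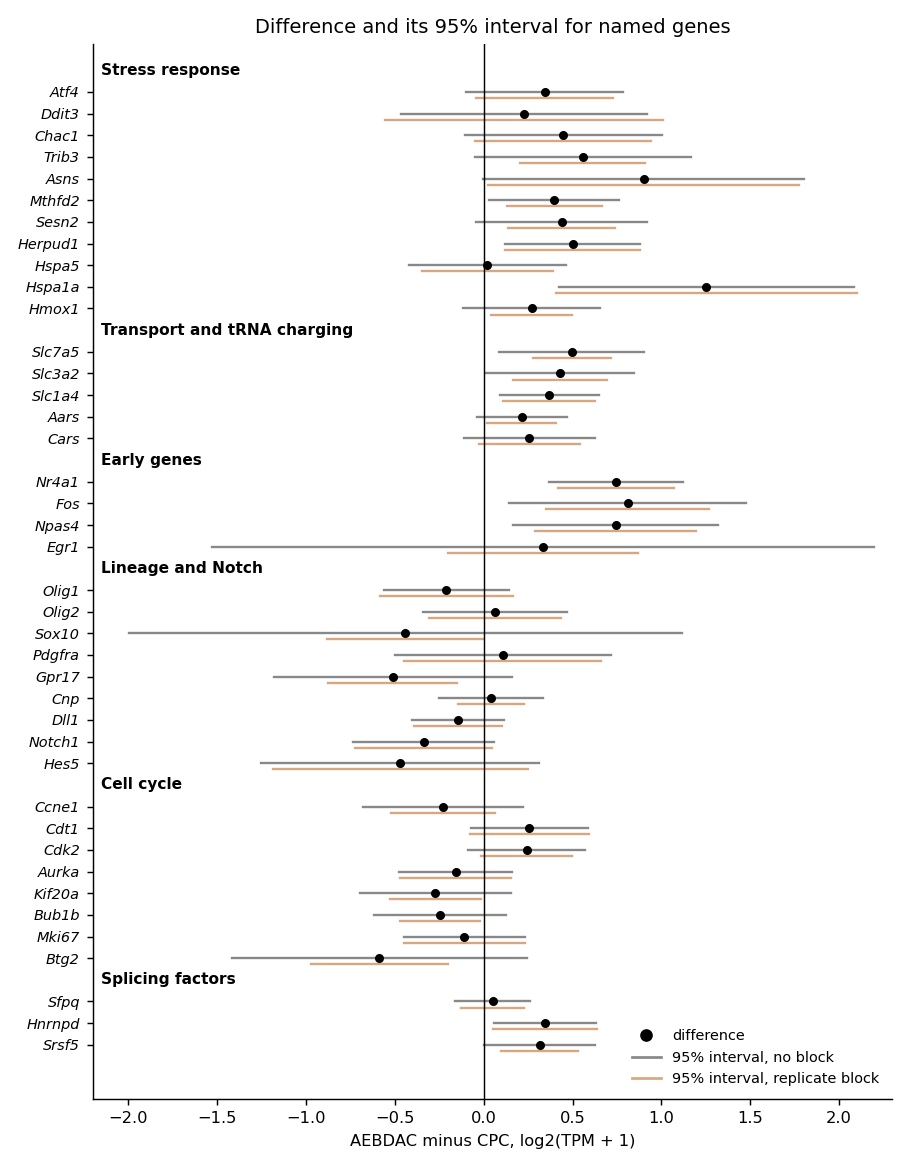
Difference between AEBDAC and CPC (points, log2(TPM + 1)) with its 95% interval from limma without (grey) and with (orange) the replicate block, for named genes by role. The block narrows the interval for Egr1, Sox10 and Btg2, and Sfpq has an interval of -0.16 to 0.26.

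**Figure D4:**
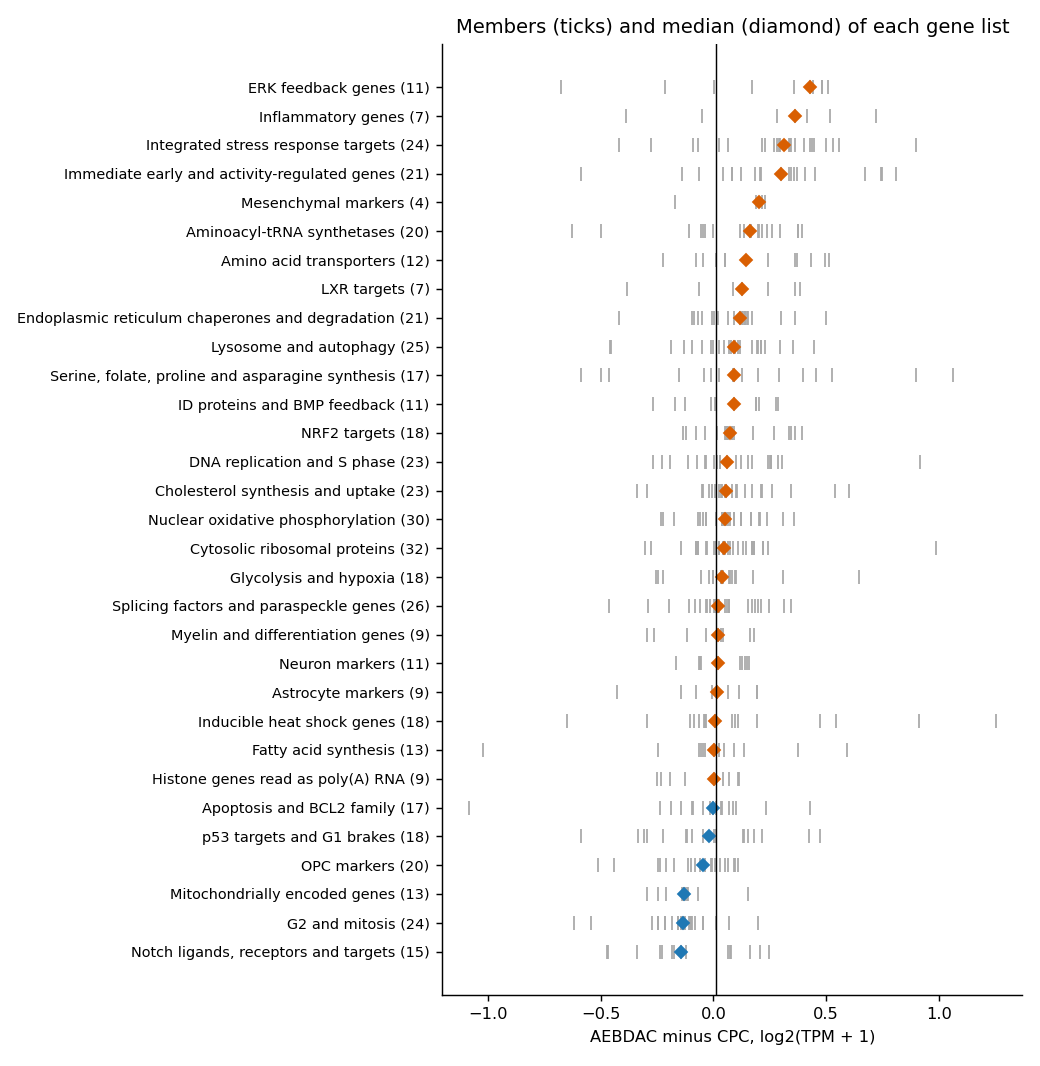
Differences of single members (ticks) and the median (diamond) of each gene list with at least 3 tested members, with the number tested in brackets and the median of all genes as a vertical line (log2(TPM + 1)). ERK feedback genes have the highest median, 0.43, and Notch pathway genes the lowest, -0.14.

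The mitochondrially encoded transcripts summed to 183001, 157847 and 169828 TPM with CPC and to 147539, 152626 and 155755 TPM with AEBDAC. The groups did not overlap, with means of 170225 ± 12581 and 151973 ± 4147 (SD, n = 3) and an exact permutation p of 0.1, the lowest that 3 against 3 libraries can give. Of 13 such genes 12 were negative, with a median of -0.13. TPM are shares of 1 library, so this sum moves all other values. After the values were rescaled without these genes the median of the integrated stress response list was 0.30 and that of G2 and mitosis -0.16.

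The group means of MTOAC and vehicle share no library with AEBDAC against CPC, so genes called there were used to describe the comparison. The calls are not fully separate from it, because the fit estimated the spread of each gene over all 12 libraries. Of 95 genes that rose with MTOAC, 89 (93.7%) had a positive difference between AEBDAC and CPC, against 53.1% of all genes, with a median of 0.28. In all 3 numbered pairs 76 (80%) were positive, against 17.3% of all genes. Only 8 of the 95 were listed stress response targets and 4 immediate early genes, and of the 70 in no list 64 (91.4%) were positive with a median of 0.24. Of 690 genes that fell with MTOAC, 525 (76.1%) had a negative difference, against 46.8% of all genes, with a median of -0.10. The mean level of the 95 genes was 4.36, 4.69 and 4.65 log2(TPM + 1) in CPC libraries 1 to 3 and 4.70, 4.96 and 4.99 in AEBDAC libraries 1 to 3. AEBDAC was higher within each number and just higher across all libraries. For the 690 genes that mean was 4.16, 3.98 and 4.07 with CPC and 4.11, 3.85 and 3.93 with AEBDAC, lower within each number but with overlap between the groups. Of the 690 genes 36.2% were negative in all 3 pairs, against 13.8% of all genes. Without any 1 AEBDAC or CPC library the positive share stayed between 89.5% and 94.7%, and the negative share of the 690 genes between 63.3% and 83.2%. Both sets were kept as called from all 12 libraries, and were not chosen again without vehicle library 1. These genes move together within libraries, so the shares carry no p.

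**Figure D5:**
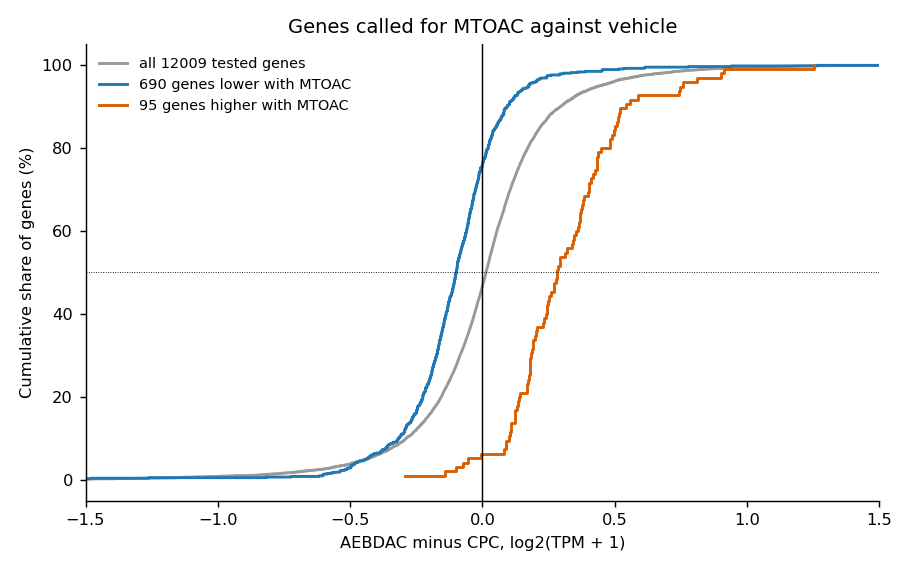
Cumulative share of genes (vertical axis, %) by their difference between AEBDAC and CPC (horizontal axis, log2(TPM + 1)) for all 12009 tested genes (grey), 690 genes that fell with MTOAC against vehicle (blue) and 95 that rose (orange). The orange curve lies to the right of the grey one and crosses the middle at 0.28, and the blue curve lies to its left.

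Against vehicle, 8 genes (0.0666%) were called with CPC and 153 (1.27%) with AEBDAC, 47 of which rose and 106 of which fell (0.883%). With the replicate block these counts were 184 and 1072. Without the block, they were 3 and 36 without vehicle library 1, and leaving out 1 AEBDAC or CPC library gave between 1 (without CPC library 3) and 7 for CPC and between 9 (without AEBDAC library 2) and 104 for AEBDAC. Both comparisons use the same vehicle libraries, and a count that is higher for one compound does not show that the compounds differ, which the direct comparison tested.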

How the data were processed

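Poly(A) RNA of 12 libraries of mouse OPCs was sequenced, 3 libraries each for vehicle, CPC, AEBDAC and MTOAC, with groups taken from the treatment labels. Reads were 150 bp pairs with a stated minimum of 20 M per library. The authors deposited TPM for 35385 gene symbols per library. Salmon was used with genome build mm10, per the submitters' processing notes, with a version not given in the sources used here. Depth behind a value is unknown beyond that minimum, and the totals lie between 772637 and 797758 TPM. No strand information was used. Of the symbols, 34858 matched GENCODE M21 (GRCm38), which gave coordinates, and promoter sequences are from RefSeq.

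Genes reaching 1 TPM in 3 or more of the 12 libraries were fitted as log2(TPM + 1) with limma 3.58.1 in R 4.3.3 (trend and robust moderation, 4 group means in 1 fit, two-sided p, Benjamini-Hochberg over 12009 genes, calls at an adjusted p under 0.05). The procedure was tested on simulated data. The deviations of same-numbered AEBDAC and CPC libraries from their group means correlated at 0.281, 0.423 and 0.229, all over 0.1, so the numbers in the titles were taken to pair the libraries, and a fit with the number as a block stands beside the plain one.

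The comparison, the 34 gene lists and the named genes were chosen with earlier results of these data known. The rule took the 6 smallest p in each direction among named genes with separated libraries whose higher group averaged 5 TPM or more, a set of fixed genes and the 3 smallest p of each list, and some of these genes are not reported here. Dusp6, Spry2 and the genes that follow the replicate number were added after their values were seen. Alternatives were other normalizations, filters, pseudocounts, library sets and moderation, and leaving out libraries.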

Additional observations from a re-analysis of the deposited data

How the results depend on the processing

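Across the alternatives, 0 genes were called between AEBDAC and CPC, except 1 without a filter and 1, Gm28438, with the 6 libraries alone. For 52 of 61 named genes the sign of the difference was kept under every alternative run, and 598 of 619 list medians moved by less than the spread between libraries. Leaving out both libraries of 1 number, and the counts by replicate number, were chosen after seeing the data. The cause of the changes below was not tested.

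The replicate block, which pairs libraries of 1 number, raised the genes at an unadjusted p under 0.05 from 211 to 415, the CPC calls against vehicle from 8 to 184 and the AEBDAC calls from 153 to 1072. It called no gene between the compounds. The block with quantile normalization gave 488, 115 and 907, and 4721 genes with an interval within 0.5 log2, where the plain fit gave 3090. Quantile normalization alone gave 16 CPC calls. The 6 libraries alone gave 339 genes at an unadjusted p under 0.05, and with the block 884, with 5448 intervals within 0.5. Without a filter there were 483 genes at that p, 17036 intervals within 1 log2, 9495 within 0.5, 38 AEBDAC calls and an inflammatory median of 0.021. A minimum of 5 TPM left 140 genes at that p. Without vehicle library 1 the calls were 3 and 36, with 3609 intervals within 0.5, and without both trend and robust moderation 1 and 75.

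Leaving out any 1 AEBDAC or CPC library gave 151 to 308 genes at that p, 1858 to 2273 intervals within 0.5, 1 to 7 CPC calls, 9 to 104 AEBDAC calls and a mitochondrial sum difference of -24441 to -11864 TPM. List medians then ranged as follows: amino acid carriers 0.071 to 0.43, tRNA synthetases 0.062 to 0.23, immediate early genes -0.047 to 0.52, ERK feedback genes -0.079 to 0.62, endoplasmic reticulum genes 0.00071 to 0.15, fatty acid genes -0.061 to 0.041, LXR targets 0.029 to 0.13, Notch genes -0.23 to 0.064, inflammatory genes 0.13 to 0.43 and histone genes -0.17 to 0.073. Without number 1, 2 or 3 of both compounds the intervals within 0.5 were 1396, 1237 and 1107, the CPC calls 4, 0 and 0 and the AEBDAC calls 82, 2 and 4, with 131 genes at that p without number 3. Without number 1 the amino acid carriers were at 0.30, OPC markers at -0.19 and Notch genes at -0.21. Without number 2 heat shock genes were at 0.11 and ID and BMP genes at 0.21, and without number 3 Notch genes at -0.044.

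Signs turned for 9 genes. Without any 1 library the differences ranged as follows: Hspa5 -0.10 to 0.11, Hmgcs1 -0.065 to 0.086, Cnp -0.027 to 0.14, Sox10 -1.04 to 0.27, Pdgfra -0.23 to 0.40, Egr1 -0.36 to 1.01, Dusp6 -0.39 to 1.14 and Olig2 -0.032 to 0.16. Hspa5 was also -0.012 with quantile normalization, with or without the block, -0.0053 when rescaled without mitochondrial genes and -0.055 without number 3. Without number 1, Hmgcs1 was 0.080, Pdgfra -0.20, Olig2 -0.087 and Sfpq -0.00069, and without number 3 Cnp was -0.0041. The medians of heat shock, fatty acid, splicing, myelin and histone genes, all within 0.05 of 0, also turned negative with quantile normalization and with rescaling.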
